A study of Mus musculus with 35 samples.

Results

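The collagen gene family comprised all genes whose symbol is Col, a number, the letter a and a number. The bulk table held 44 such genes among 53465, and all 44 are protein coding in GENCODE vM21 (mouse build GRCm38). Their levels were described in 12 bulk RNA-seq libraries and in single cells of wild-type mouse brains on embryonic day E14.5. Brains were dissociated and sorted into 4 populations: neural cells, which carried none of the sorted surface markers, mural cells with high PDGFRβ, endothelial cells with PECAM1 and CD102, and microglia with CD45 at a medium level. Each population was sorted from 3 brains, whose numbers end the library names (Mu-340, Mu-343 and Mu-346 for mural cells, and likewise Ec-, Mi- and N- for the others), giving 3 libraries per population with 17638358 to 98414914 reads on genes. Neural libraries were made from more RNA with a TruSeq kit and the other 9 libraries with SMART-Seq v4 and Nextera XT, so kit and population cannot be told apart wherever neural cells are one side of a comparison. In the single-cell data (mCEL-Seq2, 11 libraries from 3 plates) each well carried its sort gate, and 123 neural, 210 mural, 225 endothelial and 128 microglial cells with more than 1500 transcripts were kept. Each of these libraries used 96 well barcodes and left 96 unused, which recur between libraries by design and so do not mark shared cells. The cells came from several independent brains, but no label ties a plate to a brain, so p-values between plates may measure technical spread.

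Collagens are secreted or membrane-bound proteins in which 3 alpha chains wind into a triple helix, each chain being encoded by its own gene. Fibrillar collagens (types I, II, III, V and XI) form the fibres of connective tissue and cartilage, type IV forms the sheet-like network of basement membranes, type VI forms beaded filaments, and FACIT collagens attach to the surface of fibrils. Types XV and XVIII, the multiplexins, are proteoglycans of basement membranes. In the developing brain the main basement membranes are those under the pia and around blood vessels, where endothelial cells and mural cells share one.

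The sorted populations carried the markers of their labels. The summed normalized counts of 6 mural markers were 692300 to 742050 in mural libraries and at most 7137 elsewhere, those of 6 endothelial markers 146980 to 163410 in endothelial libraries and at most 1721 elsewhere, and those of 6 microglial markers 201780 to 212160 in microglia and at most 176 elsewhere. Neural markers were less exclusive: they summed to 117370 to 126900 in neural libraries but also to 15583 to 27673 in mural, 14108 to 15700 in endothelial and 4664 to 6736 in microglial ones. A list of 10 fibroblast markers, fixed because fibroblasts of the meninges make the same fibrillar chains, summed to 6308 to 8861 in mural libraries and to 147 to 3031 elsewhere. Of its 8 tested genes, 5 were higher in mural cells, namely Fbln1 (5749 ± 1022 normalized counts in mural cells, SD, n = 3, most of the sum), Lama1 (718), Ogn (600), Mgp (163) and Dcn (103.5). Pdgfra was lower there (at most 0.939), and Dpt was at 0 in all 12 libraries. Erythroid genes (a list of 6) summed to 13054 to 34038 in endothelial and 9021 to 11826 in neural libraries. They summed to 1667 to 2075 in microglial and 242 to 598 in mural libraries. The part of fibroblasts and of erythroid RNA in the collagen results was not tested.

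Summed over the 44 genes and scaled to exon length, collagen RNA was higher in both vascular populations than in neural cells and microglia. The sum was 8368.5, 12029 and 8352.1 normalized counts per kb in the endothelial libraries (Ec-340, Ec-343 and Ec-346, the order kept throughout), 6895.3, 6616.6 and 7759.4 in the mural libraries, 1558.4, 1515.3 and 1640.5 in the neural libraries, and 207.8, 236.9 and 337.8 in microglia. On this scale no library of one population overlapped with those of another. Without the scaling to length, endothelial and mural libraries overlapped: collagens made up 0.190%, 0.281% and 0.190% of all normalized counts in endothelial and 0.196%, 0.180% and 0.233% in mural libraries. In bulk samples fewer expressing cells and less RNA per cell cannot be told apart. The classes that made up the sum differed as well. Basement membrane chains took 77.8% to 84.5% of it in endothelial and 61.7% to 63.9% in mural libraries, against 13.9% to 14.6% in neural libraries and 4.34% to 5.46% in microglia. Fibrillar chains took 49.3% to 50.2% in neural libraries and 22.9% to 24.4% in mural libraries, but 1.59% to 2.23% in endothelial ones. In microglia, with their low sum, they took 41.6% to 53.4%. FACIT chains took 22.8% in each neural library, 14.9% to 17.02% in microglia and 2.90% to 3.16% in mural libraries. These sums carry no test.

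**Figure D1:**
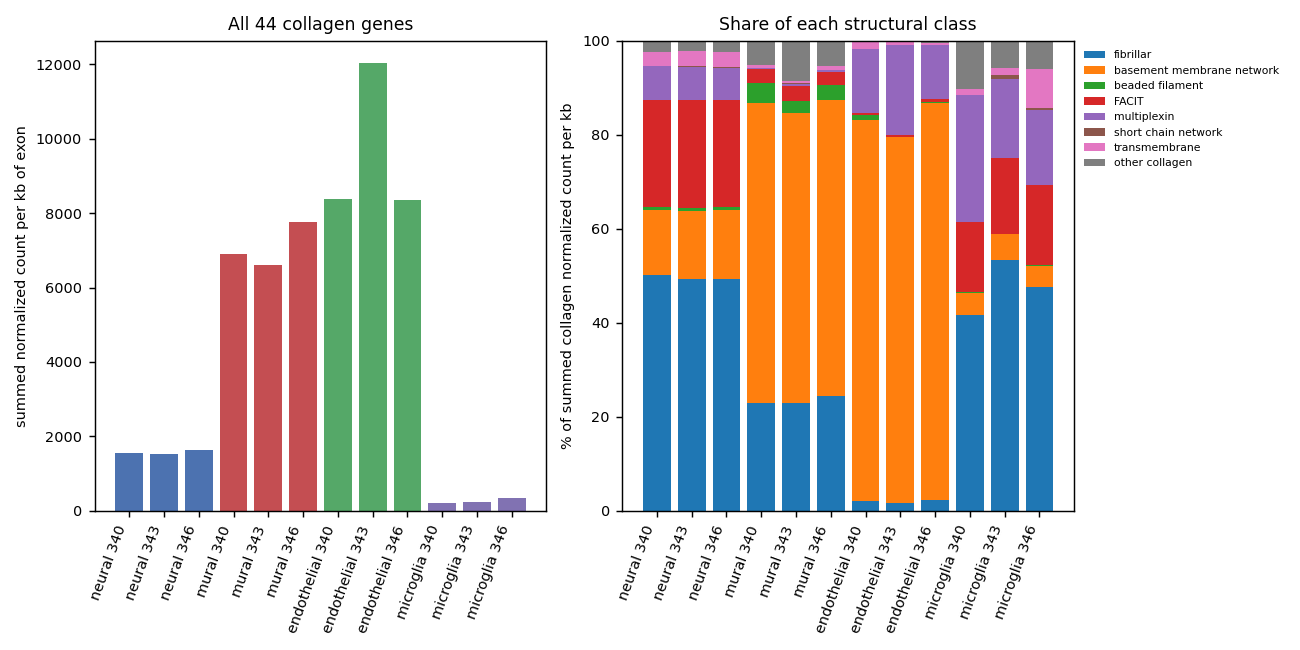
Left, the summed level of all 44 collagen genes in each bulk library, in normalized counts per kb of exon. Right, the percentage of that sum in each structural class; bars are single libraries. Endothelial and mural bars are mostly basement membrane chains, while fibrillar and FACIT chains fill most of the neural bars.

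Of the 44 genes, 36 had a mean normalized count of at least 10 and were tested with limma on log2(normalized count + 1), with Benjamini-Hochberg adjustment over all 19765 genes tested. A log2 difference below is a population's mean minus the mean of the other 3 populations. Since a gene could pass that minimum through a single high population, the counts describe these libraries and are to be read against the share of all tested genes called in the same way. In mural cells 20 of the 36 were higher (background 19.3% of all tested genes) and 15 were over 10-fold higher (background 4.99%). In neural cells 15 were higher (background 32.9%) and 10 over 10-fold higher (background 13.8%). In endothelial cells 6 were higher (background 19.7%), of which 5 were over 10-fold higher (background 6.28%), and 12 were lower (background 22.4%), a count that fell to 5 with edgeR on recovered reads. In microglia 2 were higher (background 23.4%), 1 over 10-fold (background 8.27%), and 22 were lower (background 22.3%), or 15 with edgeR. Lower in neural cells were 4 (background 31.2%) and in mural cells 6 (background 22.7%). The median log2 difference over the 36 genes was 2.60 in mural cells, 1.30 in neural cells, -1.51 in endothelial cells and -3.82 in microglia, where the medians over all tested genes were -0.10, 0.09, -0.12 and -0.02.

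By mean level, 16 of the 36 were highest in mural cells, 12 in neural cells, 8 in endothelial cells and 0 in microglia. That is 44.4% of the members in mural cells, where 20.4% of all tested genes were highest, but 33.3% in neural and 22.2% in endothelial cells, close to the 33.9% and 21.02% of all tested genes. Microglia were highest for 24.7% of all tested genes. All 3 libraries of the highest population lay above all 9 others for 12 mural genes (33.3% of the 36, background 7.25%), 5 endothelial genes (13.9%, background 6.28%) and 10 neural genes (27.8%, near the background of 25.2%). An exact permutation test of 3 libraries against 9 gave p = 0.00909 for each of these 27 genes, the smallest value this design allows; the population was picked as the highest, so this p only restates the separation.

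**Figure D2:**
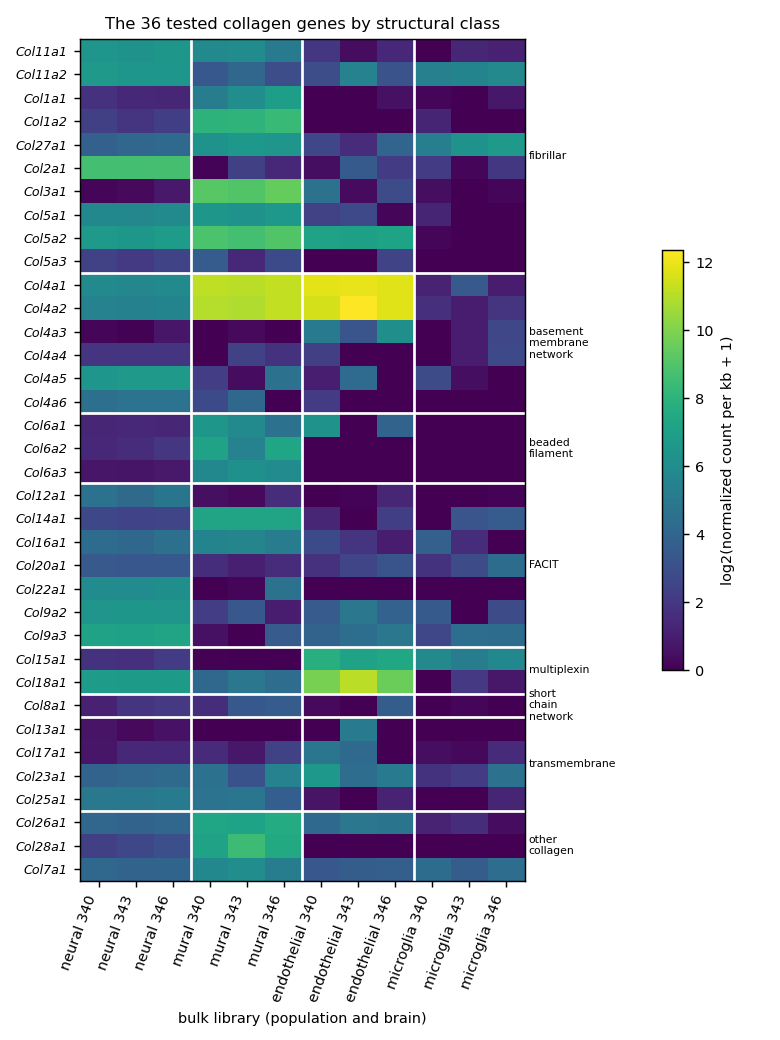
Level of the 36 tested collagen genes (rows, grouped by structural class) in the 12 bulk libraries (columns), as log2(normalized count per kb of exon + 1). Col4a1 and Col4a2 are the brightest rows in the mural and endothelial columns, and Col2a1 in the neural columns.

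The most abundant chains were those of the common type IV collagen, which assemble as trimers with both products. Col4a1 (chr8:11198423-11312826) was at 17568, 16132 and 18163 normalized counts in the mural libraries and at 27817, 30074 and 26099 in the endothelial ones. It was at 434, 390 and 452 in neural libraries and at 9.5, 73.5 and 7.6 in microglia. Every endothelial library lay above every mural library, and both populations lay far above the rest. Col4a2 (chr8:11312805-11449287) followed with 13500, 12571 and 16110 in mural, 19925, 35127 and 23098 in endothelial, 288 to 314 in neural and 5.9 to 17.6 in microglial libraries. For Col4a1 the log2 difference was 5.76 ± 0.51 (SE; adjusted p = 1.05e-05, limma) in endothelial and 4.83 ± 0.51 (adjusted p = 3.55e-05) in mural cells. Between mural and endothelial cells themselves it was -0.69 ± 0.62 (adjusted p = 0.446), and for Col4a2 -0.85 ± 0.35 (adjusted p = 0.0911), so neither difference passed the test. Per kb of exon the ratio of Col4a1 to Col4a2 was 1.15, 1.14 and 0.9998 in mural, 1.24, 0.759 and 1.002 in endothelial, and 1.33, 1.26 and 1.28 in neural libraries. The genes lie head to head, and their first exons overlap by 22 bases.

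The other type IV chains did not follow this pattern. Col4a3, a chain of the kidney glomerular membrane, was at 326, 85.2 and 693.8 in endothelial libraries, at most 52.9 in microglia and at most 6.9 in the neural and mural libraries (log2 difference 6.33 ± 1.11, adjusted p = 0.00108, limma). The endothelial values were spread over 8-fold, and with a separate spread for each population, chosen after seeing the data, the adjusted p was 0.0536. Its neighbour Col4a4, whose gene starts 71 bases away on the other strand, was at 27.5 to 29.4 in neural libraries and between 0 and 60.4 elsewhere, with overlapping populations and no call. Col4a5 and Col4a6 lie head to head on chromosome X with 1308 bases between them. Both were highest in neural cells: Col4a5 was at 603.6, 656.2 and 693.5 and Col4a6 at 180.3, 199.4 and 201.3. In other libraries Col4a5 ranged from 0 to 160.6 and Col4a6 from 0 to 132.4, below every neural value. Their log2 differences in neural cells were 5.90 ± 1.57 (adjusted p = 0.00691) and 5.66 ± 1.40 (adjusted p = 0.00448).

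The classical fibrillar chains of connective tissue were found in mural cells. Col3a1 (chr1:45311538-45349706), which forms homotrimers, was at 5616, 5045 and 6849 normalized counts in mural libraries. It was at 235.7, 2.8 and 58.8 in endothelial, 1.3 to 7.7 in neural and 0 to 3.6 in microglial libraries. Col1a2 (chr6:4504814-4541544) was at 3125, 3234 and 4049 in mural libraries, at 34.9 to 50.7 in neural libraries and at 0 in all 3 endothelial libraries. Against 3 reads in each endothelial library, the mural mean of Col1a2 was at least 738-fold higher. Its partner in type I collagen, Col1a1 (chr11:94936224-94953042), was lower and less even, at 239.9, 438.3 and 806.8 in mural libraries and at most 16 elsewhere. The log2 differences in mural cells were 9.71 ± 1.04 for Col3a1 (adjusted p = 4.05e-05), 9.45 ± 0.81 for Col1a2 (adjusted p = 9.11e-06) and 6.91 ± 0.69 for Col1a1 (adjusted p = 2.53e-05), by limma. Type I collagen is usually built from 2 Col1a1 chains and 1 Col1a2 chain, but per kb of exon Col1a2 exceeded Col1a1 by 6.88, 3.90 and 2.65 times in the mural libraries. The exon length of Col1a2 merges all its annotated transcripts, which lowers its value per kb.

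The minor fibrillar chains, which set fibre diameter, were less restricted. Col5a2, the tail-to-tail neighbour of Col3a1 at a distance of 24614 bases, was at 4478, 3975 and 4928 in mural, 1329, 1235 and 1398 in endothelial, 953.5, 884.4 and 1088.2 in neural and 1.2, 0 and 0 in microglial libraries. The 4 populations did not overlap. Col5a2 was called higher in mural (log2 difference 5.23 ± 0.27), endothelial (2.89 ± 0.27) and neural cells (2.31 ± 0.27), because the microglial values pull down the mean of the others. Col5a1 was at 796.1, 660.9 and 820.0 in mural and 435.8 to 500.6 in neural libraries, and at most 48.3 in the endothelial and microglial ones. The ratio of Col5a2 to Col5a1 per kb was 4.98 to 5.32 in mural and 1.80 to 1.92 in neural libraries. Col5a3 stayed at 11.4 to 76.5 in mural and 22.7 to 33 in neural libraries, and its mural call (adjusted p = 0.0385) was lost without a minimum level (adjusted p = 0.0642) and on leaving out any of 10 of the 12 libraries, with an adjusted p of up to 0.154.

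The main chains of type VI collagen also separated the vascular populations, apart from Col6a1. Col6a3 was at 643.2, 888.0 and 748.6 and Col6a2 at 1143.5, 366.4 and 1265.2 in the mural libraries. Both were at 0 in all 3 endothelial and all 3 microglial libraries, and at 7.8 to 9.5 and 13.4 to 23.5 in the neural ones. Measured against 3 reads in each endothelial library, Col6a3 was at least 162-fold and Col6a2 at least 197-fold higher in mural cells. Col6a1, the tandem neighbour of Col6a2, was at 412.5, 250 and 102.4 in mural libraries but also at 342.0, 0 and 63.3 in endothelial ones, so these groups overlapped. The later chains Col6a4, Col6a5 and Col6a6, clustered on chromosome 9, were below the minimum level. Col6a4 and Col6a5 nevertheless had 14.7 to 23.2 and 22.7 to 28 in every neural library, and 1.2 at most elsewhere, while Col6a6 was at most 18.1 in any library.

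Other chains led by mural cells were of rarer types. Col28a1, a type VI-like chain, was at 679.0, 1724.6 and 905.4 in mural libraries, 20.03 to 34.3 in neural libraries, and 0 in all 6 endothelial and microglial libraries, at least 235-fold below the mural mean in endothelial cells. Its log2 difference in mural cells was 8.40 ± 0.45 (adjusted p = 3.24e-07). With these zeros in the mean of the others it was also called higher in neural cells (1.44 ± 0.45, adjusted p = 0.0163), a call lost with a pseudocount of 5 and without N-343 or N-346. Col14a1, a FACIT chain, was nearly equal in the 3 mural libraries at 1034, 1047 and 1045 and at most 79.3 elsewhere. Col26a1 was at 1296, 1157 and 1610 in mural libraries against 115.2 to 238.5 in neural and endothelial ones. Col16a1 (248.0 to 329.9 in mural libraries) and the anchoring-fibril chain Col7a1 (385.1 to 688.2) were also highest there, with neural values of 117.4 to 152.7 and 149.5 to 177.6. By mean level microglia stood second for Col7a1, at 205.6, 119.8 and 209.0. Col8a1, a short chain of vessel walls, was called with 16.2 to 87.3 in mural libraries, but 1 endothelial library had 89 and the call was lost in 9 of the 12 fits without 1 library and by edgeR on recovered reads.

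**Figure D3:**
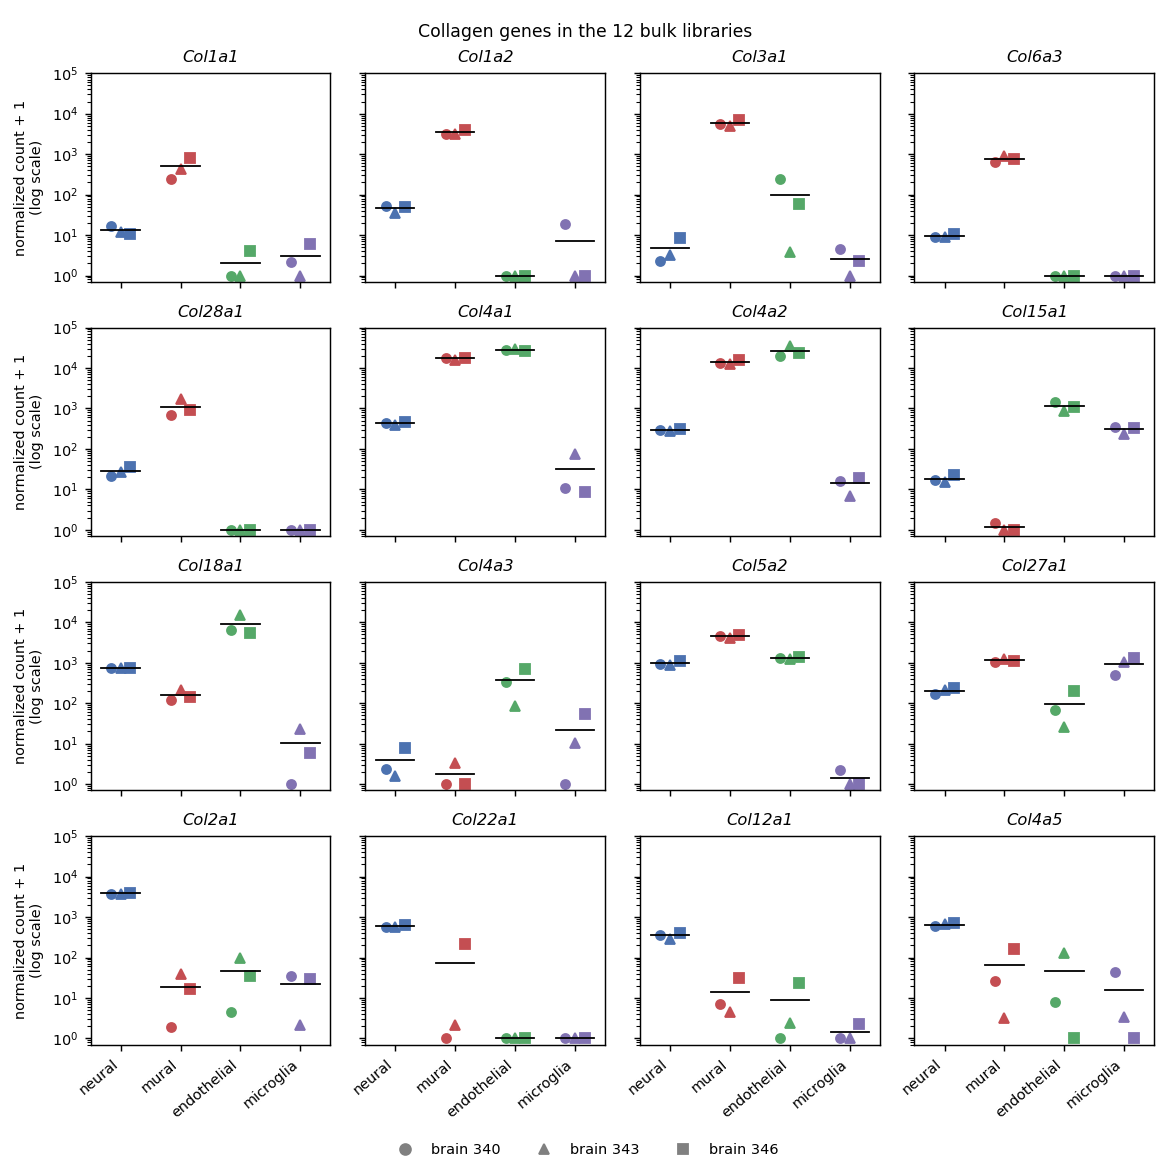
Normalized count + 1 (log scale) of 16 collagen genes in the bulk libraries; symbols are brains and lines are means of 3 libraries. Mural points stand highest for Col1a1, Col1a2, Col3a1, Col6a3 and Col28a1, endothelial points for Col4a1, Col4a2, Col15a1, Col18a1 and Col4a3, and neural points for Col2a1, Col22a1, Col12a1 and Col4a5.

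The multiplexins separated endothelial from mural cells in the opposite direction. Col18a1, whose C-terminal fragment is endostatin, was at 6466, 15187 and 5487 in endothelial, 739.3 to 758.5 in neural, 117.5 to 206.6 in mural and 0 to 22.5 in microglial libraries. Col15a1, the other multiplexin, was at 1419, 877 and 1086 in endothelial libraries and at 355.4, 234.8 and 336.1 in microglia. It was at 14.4 to 21.7 in neural libraries and at 0.4, 0 and 0 in mural ones. Microglia thus stood second for Col15a1 and last for Col18a1, with no overlap in either order. The log2 difference between mural and endothelial cells was -9.94 ± 0.48 for Col15a1 (adjusted p = 3.43e-07) and -5.74 ± 0.90 for Col18a1 (adjusted p = 0.000775). In this direct comparison 15 of the 36 genes were higher in mural cells (background 13.5%) and 4 in endothelial cells (background 14.3%): Col15a1, Col4a3, Col18a1 and Col9a3. Leaving out single libraries lost the call of Col16a1 as higher in mural cells in 9 of 12 cases and that of Col9a3 in 4, and both were lost by edgeR on recovered reads and with weights by population (Col16a1 also with a pseudocount of 0.5 and with no minimum level). The median difference was 2.39, also with the genes at 0 in endothelial cells set to their bounds, against 0 over all genes.

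Several chains known from cartilage (types II, IX and XI) were highest in neural cells, though not Col27a1, and Col10a1 was near 0 in all populations. Col2a1 (chr15:97975602-98004695) was at 3818, 3767 and 3923 normalized counts in neural libraries and at most 96.5 elsewhere (log2 difference 7.99 ± 1.17, adjusted p = 0.000139, limma). Per kb it was the most abundant collagen of neural cells, at 415 ± 8.6 (SD, n = 3), followed by Col9a3 at 142 ± 6.6. The 6 cartilage markers of a fixed list, such as Acan and Matn1, summed to 13 to 20 in these libraries. The same list summed to 968 to 1109 in endothelial libraries, most of it Hapln1 (925 ± 108, SD, n = 3), and to at most 137 in the others. Col9a2 (265.2 to 285.7) and Col9a3 (525.5 to 575.9) were over 10-fold higher against the mean log2 level of the other populations. Endothelial cells stood second for both, at 33.7 to 89.4 and 54.9 to 110.1. The neural means were 4.98 and 6.69 times the endothelial ones. Col9a1, under the minimum level, was at 24.3 to 28.04 in each neural library and at most 1.4 elsewhere. The type XI chains differed from each other: Col11a1 was at 1106, 1041 and 1174 in neural and 766.0, 789.8 and 437.7 in mural libraries, whereas Col11a2 was at 617.4 to 701.1 in neural libraries and second in microglia at 281.7 to 377.7. Col22a1, a FACIT chain of tissue junctions, was at 559.5, 565.4 and 644.1 in neural libraries and at 0, 1.1 and 214.1 in mural ones, so its mural mean rests on Mu-346. Col12a1 was at 284.1 to 405.3 in neural libraries and at most 30.1 elsewhere. Col25a1, a transmembrane chain of neurons, was at 392.1 to 440.4 in neural libraries and also at 153.1 to 357.3 in mural ones. Col20a1 was at 48.2 to 50.7 in neural libraries but reached 103.2 in a microglial library, and Col19a1 was at 4.4 to 5.3 in neural libraries and at most 0.4 elsewhere. All of these neural values come from the other library kit.

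Microglia had little collagen RNA, and what they had was of a few genes. Col27a1, a fibrillar chain of cartilage, was at 500.4, 1022 and 1306 in microglia and at 1061, 1266 and 1121 in mural libraries, with overlapping values. It was at 169.6 to 230.6 in neural and 25.6 to 199.1 in endothelial libraries. The log2 difference was 2.30 ± 0.50 in mural cells (adjusted p = 0.00394) and 1.78 ± 0.50 in microglia (adjusted p = 0.0141), and the microglial call was lost without Mi-343 or Mi-346. All 5 tested markers of border macrophages, which lie in the meninges and around vessels, were also called higher in the microglial libraries, where the summed list of 6 was at 15405 to 19616 against 325 to 994 in mural libraries. Their part in these values was not tested.

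The remaining chains were low or uneven. Col13a1 was found as 104 reads in 1 endothelial library and 0 in the other SMART-Seq libraries. Col17a1 was at 166.6, 105.0 and 0 in endothelial libraries, and Col23a1 at 542.2, 119.2 and 193.0 there with overlap in mural libraries. Col24a1 was at 11.1 to 25.4 in neural libraries and at 2.8 to 23.2 in mural ones. Col8a2 and Col10a1 did not exceed 14.2 and 1.8 in any library.

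Upstream sequences are shown for 4 chains that separated the populations and whose window holds no annotated exon: Col3a1 and Col6a3 for mural cells, Col15a1 for endothelial cells and microglia, and Col4a6 for neural cells. Each is the 250 bases before the gene's start in RefSeq (GRCm38.p6), 5′ to 3′ on the gene's strand. Capitals mark TATAAA letters, the sequence CCAAT or the motif GGGCGG, searched on both strands.
Col3a1, chr1:45311288-45311537, plus strand: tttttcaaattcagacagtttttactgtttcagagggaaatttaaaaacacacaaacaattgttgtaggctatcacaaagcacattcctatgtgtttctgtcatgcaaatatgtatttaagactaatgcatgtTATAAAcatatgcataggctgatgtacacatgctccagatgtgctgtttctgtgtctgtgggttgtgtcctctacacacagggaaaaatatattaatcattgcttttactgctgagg
Col6a3, chr1:90843972-90844221, minus strand: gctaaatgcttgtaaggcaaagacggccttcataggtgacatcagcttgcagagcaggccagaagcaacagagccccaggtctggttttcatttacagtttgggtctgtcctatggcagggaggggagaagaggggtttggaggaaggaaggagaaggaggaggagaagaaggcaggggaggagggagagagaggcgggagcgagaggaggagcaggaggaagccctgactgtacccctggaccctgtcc
Col15a1, chr4:47207762-47208011, plus strand: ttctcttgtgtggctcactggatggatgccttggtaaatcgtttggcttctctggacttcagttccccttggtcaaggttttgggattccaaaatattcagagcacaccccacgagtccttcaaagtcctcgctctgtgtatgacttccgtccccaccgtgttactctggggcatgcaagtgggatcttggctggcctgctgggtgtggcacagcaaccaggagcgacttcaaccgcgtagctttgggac
Col4a6, chrX:141474077-141474326, minus strand: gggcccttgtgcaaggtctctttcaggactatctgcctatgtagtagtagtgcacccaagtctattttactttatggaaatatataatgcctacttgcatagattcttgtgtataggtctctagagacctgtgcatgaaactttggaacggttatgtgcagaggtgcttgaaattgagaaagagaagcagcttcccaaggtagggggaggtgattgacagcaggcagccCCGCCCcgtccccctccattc

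Col3a1 has 1 TATAAA and Col4a6 has 1 GGGCGG, read on the opposite strand, while none of the 3 motifs is in the windows of Col6a3 and Col15a1. Promoter windows were given for 35 of the 44 genes, 38 windows in all. TATAAA was in 5 of them (13.2%; 12.4% of all 32851 windows), CCAAT in 13 (34.2%; 33.9% of all) and GGGCGG in 22 (57.9%; 32.7% of all). A match describes these letters and not a site in use.

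Genes for making and sensing collagen were described from 3 lists. Of 21 genes for chain modification and folding, 8 were higher in mural, 7 in endothelial, 6 in neural cells and 6 in microglia, where 9 were lower. Against the backgrounds given for higher genes (19.3% in mural, 19.7% in endothelial, 32.9% in neural cells and 23.4% in microglia), the neural and microglial counts are at or near background. The largest mural differences were those of Serpinh1, the collagen chaperone HSP47 (116000 ± 27640 normalized counts in mural, 68030 ± 11940 in endothelial, 2573 ± 155 in neural cells and 242 ± 63.3 in microglia, SD, n = 3), of Plod2, a lysyl hydroxylase for crosslinks (3566 ± 879 in mural and 490 ± 104 in endothelial cells), and of the chaperone Fkbp10 (2325 ± 367 and 3504 ± 1191). Of 14 genes for procollagen processing and crosslinking, 7 were higher in mural, 7 in neural and 3 in endothelial cells, and 0 in microglia by limma, while 8 were lower in microglia and 6 in endothelial cells. Pcolce, an enhancer of C-propeptide cleavage, was at 3699 ± 730 in mural cells and at most 117.1 in any other library. Adamts14, an N-propeptidase, was at 59.8 ± 24.9 in mural cells, while Lox, a lysyl oxidase, was lower there (4.99 ± 6.75) than in endothelial cells (186 ± 124). Chosen after its values were seen, the related Loxl3 went the other way, at 2995 ± 1079 in mural and 121 ± 164 in endothelial cells, as did Loxl2 at 682 ± 128 and 252 ± 172. Of 12 collagen receptor genes 11 were tested, and 5 were higher in mural cells, 4 in neural cells, 3 in endothelial cells and 1 in microglia, while 6 were lower in endothelial cells and 5 in microglia. The neural count is near background. The share of all tested genes called lower was 22.4% in endothelial cells and 22.3% in microglia. Itga11 (1250 ± 359), Itga1 (24460 ± 2604) and Ddr2 (2891 ± 695), receptors for fibrillar and type IV collagen, had the largest mural differences. Chosen after their values were seen, the receptor Ddr1 was at 8005 ± 497 in neural cells and 178 ± 16.9 in mural cells, and the inhibitory receptor Lair1 was at 7657 ± 2096 in microglia and 0 in all endothelial libraries.

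In single cells the same genes were read by 3′ tags without the difference in library kit. The tables listed 41 of the 44 genes, all but Col8a2, Col10a1 and Col17a1. Collagens made up 0.583% of transcripts in the mural gate, 0.386% in the endothelial, 0.0226% in the neural and 0.0114% in the microglial gate. A mural cell had transcripts of a median of 7 collagen genes, an endothelial cell of 4, and a neural cell or microglial cell of 1. Background was read from barcodes that held no cell: of 1056 such barcodes 233 had a collagen transcript, and their median total over all genes was 51 to 130 transcripts depending on the library.

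Summed by gate and plate, 15 collagen genes passed the filter on low counts among 9281 genes tested with edgeR's quasi-likelihood test. In the mural gate 12 were higher (background 13.5%), in the endothelial gate 5 (background 16.4%), in the neural gate 2 (background 22.5%) and in the microglial gate 2 (background 22.2%), where 10 were lower (background 21.2%). The median log2 difference over the 15 genes was 4.21, 0.20, -2.38 and -2.35 in these gates, in that order, against -0.05 to 0.04 over all genes. The neural sign is the reverse of the bulk median of 1.30, which was over 36 genes and across library kits. Between the vascular gates 10 were higher in mural (background 9.17%) and 2 in endothelial cells (background 11.5%). Plate 3 contributed only 6 to 14 cells per gate.

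The common type IV chains Col4a1 and Col4a2 were found in nearly every vascular cell, the other type IV chains in few: Col4a3 was in 3 of 225 endothelial and 0 of 210 mural cells. Col4a1 was detected in 198 of 210 mural cells (94.3%, exact 95% interval 90.2% to 97.01%) and in 212 of 225 endothelial cells (94.2%, 90.3% to 96.9%). Neural cells showed it in 28.5% and microglia in 26.6%, at median depths of 7717 and 10761 transcripts against 6885 and 6408 in the vascular gates. Barcodes without a cell had Col4a1 in 116 of 1056 cases (10.98%) at far lower totals, so these low shares are not read as expression, and the part of free RNA in them was not tested. Col2a1 and Col15a1 were in 0 and 3 of those barcodes. On plates 1, 2 and 3 Col4a1 was at 2660, 2862 and 2676 CPM (transcripts of the gene scaled to a total of 1000000) in the mural gate and 2073, 2045 and 970 in the endothelial gate. Mural values were thus the higher ones here, the reverse of the bulk order, and in neither data set did the difference pass the test (log2 difference 0.48, adjusted p = 0.364, edgeR). Every cell of the mural gate with Col4a2 also had Col4a1.

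**Figure D4:**
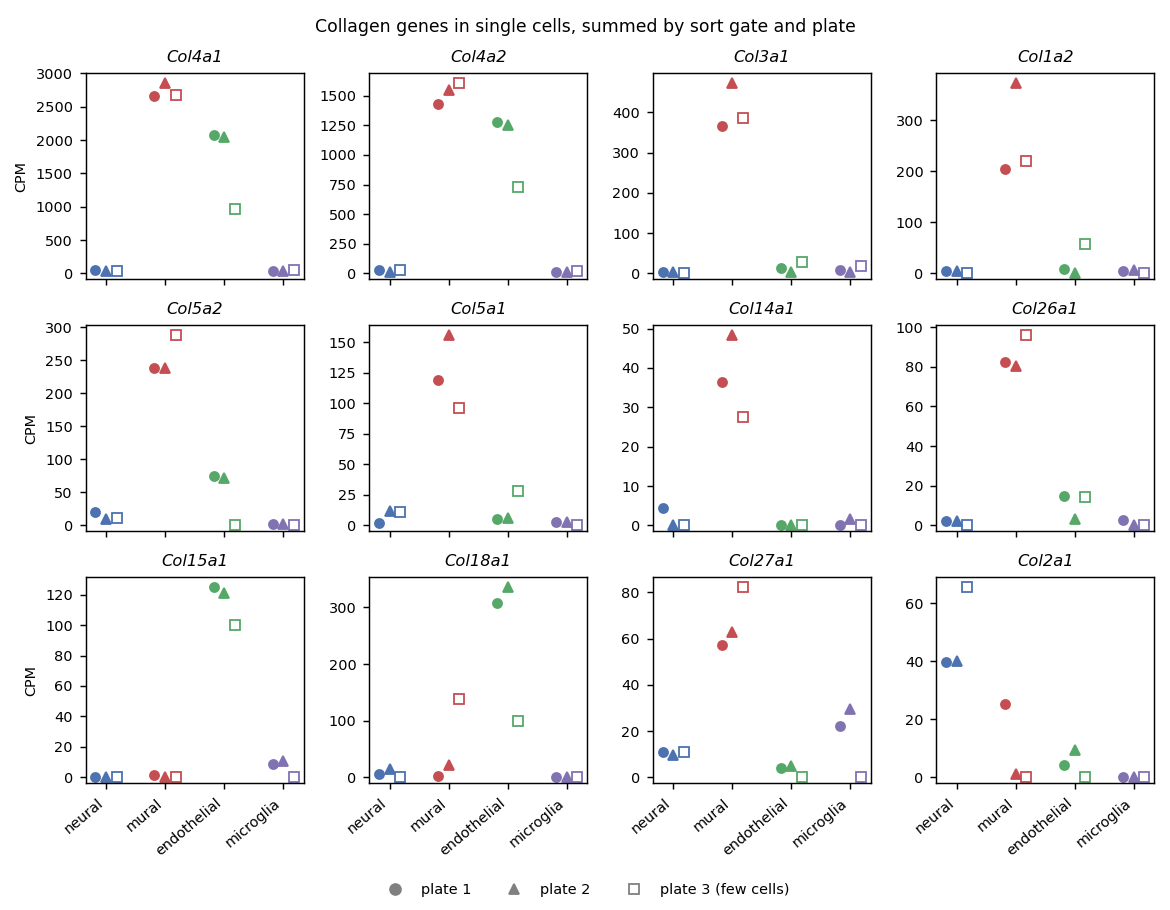
CPM of 12 collagen genes after adding up the kept cells of a gate on plates 1, 2 and 3; open squares are plate 3 sums of 6 to 14 cells. Mural sums lie highest for Col3a1, Col1a2, Col5a1, Col5a2, Col14a1 and Col26a1, and endothelial sums on plates 1 and 2 for Col15a1 and Col18a1.

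The fibrillar chains Col3a1 and Col1a2 were detected in most mural cells. Col3a1 was detected in 149 of 210 mural cells (70.95%, 64.3% to 76.995%) and Col1a2 in 139 (66.2%, 59.4% to 72.6%), against 4.44% and 2.67% of endothelial cells. After thinning every cell to 1500 transcripts these mural shares were 37.1% and 30.5%. The log2 differences in the mural gate were 5.93 for Col3a1 (adjusted p = 5.47e-25) and 5.41 for Col1a2 (adjusted p = 2.23e-21), with all 3 mural sums above all others. The tenth of mural cells with most transcripts held 41.7% of the Col3a1 and 42.1% of the Col1a2 transcripts, and 24.7% of those of Col4a1. These shares are not compared, because a rarer gene can look less even by counting alone (461 Col1a2, 659 Col3a1 and 4283 Col4a1 transcripts). The order did not follow these numbers throughout: the tenth with most held 32.4% of the 373 Col5a2 transcripts. Of the 139 cells with Col1a2, 112 also had Col3a1 and all had Col4a1. Fibroblast markers were seen in the same gate: 57 of the 210 mural cells had at least 2 of the 7 that were listed, and these cells (27.1%) held 37.96% of the Col1a2, 29.3% of the Col3a1 and 34.97% of the Col4a1 transcripts. The share of all transcripts held by these cells is not given, and the part of depth in these values was not tested. Col1a1 was again the rarer type I chain, in 29 mural cells (13.8%, 9.45% to 19.2%).

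Several less abundant genes called in bulk mural cells were also found in more mural than endothelial cells, though not Col8a1, which was in 3 cells of each. Col5a2 was detected in 70.5% of mural and 31.1% of endothelial cells, Col5a1 in 50% and 3.56%, Col26a1 in 34.3% and 7.11%, Col6a2 in 32.4% and 3.11%, and Col14a1 in 21.4% and 0 of 225 (exact upper bound 1.63%). Col6a3 was in 34 mural cells and 1 endothelial cell but missed the filter. Col28a1, at 1103 ± 550 normalized counts in bulk mural libraries, was in only 11 mural cells.

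Col18a1 was detected in 144 of 225 endothelial cells (64%, 57.4% to 70.3%) and 5.24% of mural cells, and Col15a1 in 54 endothelial cells (24%, 18.6% to 30.1%) and 1 mural cell. Their log2 differences in the endothelial gate were 6.35 (adjusted p = 1.63e-19) and 6.495 (adjusted p = 1.94e-19) by edgeR. On plate 3 the mural gate had 137 and the endothelial gate 99.7 CPM of Col18a1, from 10 and 13 cells. The tenth of endothelial cells with most held 79.4% of the 204 Col15a1 and 45.3% of the 516 Col18a1 transcripts, and 46 of the 54 cells with Col15a1 also had Col18a1.

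**Figure D5:**
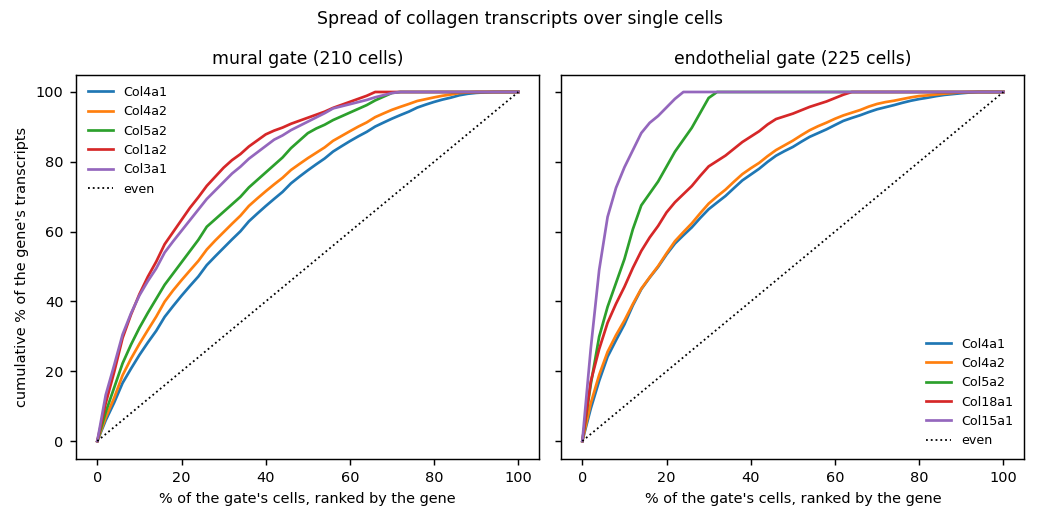
Cumulative percentage of a gene's transcripts over the cells of the mural and endothelial gates, ranked from most to fewest transcripts; the dotted line is an even spread. Curves are steepest for Col1a2 and Col3a1 in the mural gate and for Col15a1 in the endothelial gate. Col5a2 has fewer transcripts than these genes but a flatter curve, and evenness is not compared between genes.

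In the neural gate Col2a1 was detected in 17 of 123 cells (13.8%, 8.26% to 21.2%) and Col11a1 in 16, with log2 differences of 3.97 (adjusted p = 3.51e-07) and 2.81 (adjusted p = 0.000572, edgeR). Col2a1 was in 3.81% of mural, 2.67% of endothelial and 0 of 128 microglial cells (exact upper bound 2.84%), whereas Col11a1 was in more mural cells (40 of 210) than neural ones, at 30.9 and 20.7 CPM, the reverse of the bulk order. The neural call of Col11a1 was lost with DESeq2 and without the neural sum of plate 2. Col25a1 was in 6.50% of neural cells (10.4 CPM) and 5.71% of mural cells (9.67 CPM). The other neural chains of the bulk libraries were seen in few cells, Col4a5 and Col9a3 in 3 neural cells each and Col12a1 in 4. For several the gates ran against the bulk order. Col22a1 was in 1 neural cell (1.04 CPM) and 7 mural cells (6.45 CPM), and Col9a2 in 2 neural cells (2.07 CPM) and 10 endothelial cells (7.20 CPM). These differences were not tested, since both genes missed the filter. Likewise Col20a1 was in 1 neural and 3 microglial cells, and Col6a4, Col6a5 and Col19a1 were in 0 neural cells and in 1, 1 and 2 endothelial cells. In the microglial gate Col27a1 was detected in 23 of 128 cells (17.97%, 11.7% to 25.7%) below the 28.1% of mural cells and above the 5.69% of neural cells, and Col15a1 in 12, against 0 of 123 neural cells. Neither microglial call held with DESeq2, which called 0 of the collagen genes higher there.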

How the data were processed

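The collagen genes and the gene lists were chosen with earlier results of these data known. The bulk table, as the authors deposited it, holds normalized counts, treated here as a signal. The submitters' processing notes name BWA 0.6.2-r126, STAR, featureCounts, DESeq2 and the build mm10, without saying which file each step made. All 123944 values of up to 100 reads were whole within 0.01 after division by 1 factor per library, so the reads were recovered for an edgeR 4.0.16 alternative, which called 4236 of 20752 genes higher in mural cells. The cell tables deposited by the authors hold expected counts, that is, numbers of identifiers corrected for 4096 possible ones. Whether the counting used strand is not given in the sources used here.

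Gene names, spans and exon lengths came from GENCODE vM21 (53360 of 53465 IDs matched), and sequences from RefSeq. Exon length is the union over a gene's transcripts, and values per kb use it.

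The bulk tests used limma 3.58.1 under R 4.3.3 (pseudocount 1, trend, mean of at least 10), and a floor of 3 reads per library was used for genes at 0. Sums per gate and plate were compared with edgeR, with DESeq2 1.42.0 tried besides. Calls needed an adjusted p under 0.05 (Benjamini-Hochberg), and tests were two-sided. Intervals are exact (Clopper-Pearson), and intervals and floors cover counting error only. Doublets were not removed, and 37 wells without a gate, of which 0 passed the depth filter, and the cells of knockout plates were not used here. On simulated data the limma test called 98 of 100 genes changed 4-fold and 100 of 100 changed 16-fold in mural cells among 20382 genes, and 0 unchanged genes. For the single-cell sums edgeR called 99 and 100 of 100 among 8740, and 7 unchanged genes besides. The simulation gave all genes and populations the same dispersion and changed only genes with a mean count of at least 10. Spread in the real libraries differs between genes and populations, so these rates are not the power for these data.

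Named genes were every tested chain of types I, III, IV, V, VI, XV and XVIII, the 5 largest differences per population, each other chain once with its level, and the 3 largest absolute mural differences, up or down, of each further list. Bulk libraries of the same number come from the same brain. Their residuals did not correlate (all 18 pairs below 0.1).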

Additional observations from a re-analysis of the deposited data

Results flagged for a closer look

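A small sort gate outside the comparisons, with PDGFRβ at a medium or low level, held 23 cells with more than 1500 transcripts from plates 1 and 2, and collagen transcripts were found in it above the limit that a count of 0 allows. Collagens made up 0.188% of its transcripts, between the endothelial and the neural gate. Col4a1 was at 720.9 CPM, Col4a2 at 366.0, Col2a1 at 238.0, Col22a1 at 97.5, Col3a1 at 67.04, Col5a1 at 54.8, Col5a2 at 54.8 and Col1a2 at 42.7. Col2a1 was in 6 of the 23 cells (26.1%, exact 95% interval 10.2% to 48.4%) and Col22a1 in 5. With mural markers at 2846 and neural markers at 1764 CPM, the gate held RNA of both. These values come from 23 cells, and no comparison with the other gates was tested.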

How the results depend on the processing

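The alternatives were another pseudocount, another minimum level, quantile or per-million scaling, edgeR on recovered reads, a replicate block and each library left out, and for the cells DESeq2, no filter, more than 3000 transcripts, all wells, a plate block and each sum left out. Leaving libraries out aside, each tested chain of types I, III, IV, V, VI, XV and XVIII was followed in its highest population only. The 5 largest differences per population, picked from these same data, were added. Of 196 bulk combinations of such a gene and a setting, 193 kept their call, as did 71 of 72 in the single cells. Other genes and other calls are outside these counts. With edgeR on recovered reads, 7 calls of lower genes were lost in endothelial cells and 7 in microglia. Among the bulk genes tested in the population where they were highest, leaving out single libraries lost the call of Col5a3 in 10 of 12 cases, of Col8a1 in 9 and of Col16a1 in 3. With the replicate block (brain or plate) the counts of higher collagen genes stayed at 20 in mural, 15 in neural, 6 in endothelial cells and 2 in microglia, and at 12, 2, 5 and 2 in the gates. Among the bulk calls of lower genes, the block lost those of Col2a1 in mural cells, Col14a1 in endothelial cells and Col9a2 in microglia. Leaving out 1 bulk library at a time gave 18 to 20 genes higher in mural, 12 to 16 in neural and 6 to 7 in endothelial cells and 1 to 3 in microglia, and 14 to 16 and 3 to 6 in the 2 directions between mural and endothelial cells. The counts of lower genes were 9 to 13 in endothelial cells, 3 to 7 in mural cells and 18 to 23 in microglia on leaving libraries out (3 in mural cells without Mu-340 or Mu-346), and 5 in endothelial cells with edgeR on recovered reads. Microglia had 1 over 10-fold, and 1 without Mi-343 or Mi-346. Weights by population, added after seeing the data, left 2 genes higher in endothelial than in mural cells in place of 4. Quantile and per-million scaling shifted the median over all genes by -0.25 and 0.25 in the neural comparison. In the cells, DESeq2 gave 1 gene in the neural and 0 in the microglial gate and 1 higher in endothelial than in mural cells. With no filter, these were 4 in the neural and 0 in the microglial gate, and 16 higher in mural than in endothelial cells in place of 10. More than 3000 transcripts left 1 in the microglial gate. Leaving out 1 sum gave 1 to 2 in the neural gate and 0 to 2 in the microglial gate. Without the neural sum of plate 2 the neural count was 1, and without most single sums the microglial count was 0 or 1. Depth limits the shares of cells: thinning to 1500 transcripts lowered the share of endothelial cells with Col4a1 to 83.6%, with Col18a1 to 29.3% and with Col15a1 to 10.2%.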

Other observations

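Neighbouring collagen genes were compared by the population in which each was highest. GENCODE places 8 pairs next to each other with no other protein-coding gene between. Both genes were tested in 5 pairs, and by mean level the highest population was shared in 4: Col4a1 and Col4a2 (endothelial), Col4a5 and Col4a6 (neural), Col3a1 and Col5a2 (mural) and Col6a1 and Col6a2 (mural), although Col6a1 overlapped with endothelial libraries. In the other pair Col4a3 was highest in endothelial cells at 368 ± 306 normalized counts (SD, n = 3) and Col4a4 in neural cells, with overlap. The same share over neighbouring pairs of all genes was not computed. The count of 4 in 5 pairs is therefore a description only, and whether neighbours go together was not tested.

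The fit without a minimum level gave values for the 8 genes left out of the main test. Col6a4, Col6a5, Col9a1 and Col19a1 had log2 differences of 4.29, 4.56, 4.50 and 2.53 in neural cells, with adjusted p of 1.97e-07, 8.65e-07, 5.55e-06 and 2.01e-06 by limma, and their values outside neural libraries were near 0. These 4 account for the rise from 15 to 19 neural genes together with Col24a1 (2.42, adjusted p = 0.0304), 1 gene being lost. Such low levels rest on few reads, for Col19a1 on 4, 8 and 20 in the neural libraries, which were made with the other kit. In single cells Col6a4, Col6a5 and Col19a1 were in 0 of 123 neural cells and Col9a1 in 1.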
